A study of Homo sapiens with 9 samples.

Results

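The proteasome is the large protease that degrades proteins tagged with ubiquitin. Its 20S core is a barrel of stacked rings, with alpha subunits (PSMA genes) outside and beta subunits (PSMB genes) inside, and some of the beta subunits carry the cutting sites. The 19S cap binds tagged proteins, removes the ubiquitin and unfolds them with a ring of ATPases (PSMC genes) held by non-ATPase subunits (PSMD genes). Interferon induces replacement beta subunits, which form the immunoproteasome, and the PA28 activator, both known for shaping the peptides that cells show on MHC class I. When proteasomes are inhibited, the transcription factor NRF1 (NFE2L1) is known to raise most subunit genes together.

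The messenger RNA of these genes was measured by RNA sequencing in HaCaT cells, keratinocytes of human skin that grow as an immortal line, in 3 groups of 3 samples. Low-dose ALA-PDT is photodynamic treatment, in which cells take up aminolevulinic acid, build a light-sensitive porphyrin from it and are lit. Here it used 0.5 mmol/L ALA and light of 635 ± 5 nm at 3 J/cm2, and cells were kept for 12 h or for 48 h afterwards. Control cells had no treatment, and the labels name no vehicle or light-only group. The tables name their libraries B1 to B3, A1 to A3 and Nc1 to Nc3. Nc was read as control, and B and A as the treated groups, but no source ties B or A to a time, so both are given by letter and no time is assigned to either. Nothing in the labels says that the 3 samples of a group came from separate cultures, so p-values measure the spread between these samples, which may be technical.

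Members were all protein-coding genes whose symbol has the form PSMA to PSMG followed by a number. They were 49 of the 58336 genes in the count table, and 37 genes of the same form with another biotype, such as pseudogenes, were left out. They comprise 8 alpha genes, 7 constitutive beta genes, 4 immunoproteasome or tissue-specific beta genes, 6 ATPases, 11 non-ATPases of the 19S cap, 3 chaperones of 19S assembly (PSMD5, PSMD9, PSMD10), 5 activator or inhibitor genes, and 4 chaperones of 20S assembly. The last member, PSMC3IP, has a matching symbol but encodes a factor of meiotic recombination, not a subunit. PSMA8, a testis form, and PSMB11, a thymus form, had no count in any library, so any level lies below that of 3 counts per library. The other 47 passed the filter on low counts, and none rests on 1 group: the lowest single count, 27, was that of PSMA2 in A3. All were tested together with the 13845 genes that passed.

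Library totals lay between 15337296 and 18028419 counts. The 10 keratinocyte markers summed to 54065 to 59190 counts in B, 78257 to 88813 in A and 56981 to 67025 in Nc. KRT5, a keratin of basal keratinocytes, had 5016 to 5216 counts in B, 6518 to 7991 in A and 5929 to 7269 in Nc, but its partner KRT14 had only 2 to 3 in B, 12 to 20 in A and 8 to 15 in Nc. The 3 globin genes, markers of red cells, summed to 4, 8 and 8381 counts in B1 to B3, 597, 1244 and 7 in A1 to A3, and 7336, 7457 and 3 in Nc1 to Nc3. Sums of 9 leukocyte markers were 65 to 378 in B, 53 to 92 in A and 24 to 347 in Nc, and those of 6 endothelial markers were 197 to 246 in B, 27 to 52 in A and 48 to 73 in Nc. The 8 fibroblast markers summed to 38 to 65 counts in B, 27 to 195 in A and 48 to 70 in Nc, and the 6 melanocyte markers to 124 to 159, 109 to 160 and 144 to 208, with TYR at 0 in all libraries. The part of these signals in the results on the proteasome was not tested, and in bulk RNA fewer cells and less RNA per cell cannot be told apart.

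The promoters of 43 of the 49 members were matched by symbol in RefSeq (GRCh38.p14), as 250 bases before to 50 after a gene's start. PSMA7, PSMB1, PSMB6, PSMB7, PSMD4 and PSMG3 were not matched. Of the matched promoters, 5 are printed here, for genes on which the comparisons turn: PSMC6, PSMD1 and PSMD12, which were lower in B than in Nc, PSMB10, which was higher in B than in Nc, and PSME1, which was higher in B than in A. Capitals mark matches, on either strand, to 6 motifs: TGACNNNGC and TGAGNNNGC, forms of the antioxidant response element that NRF1 and NRF2 can bind, CCGGAAG (ETS factors), CCAAT (NF-Y), TTCNNNGAA (STAT factors) and the interferon-stimulated response element (ISRE, spelled TTTC, any 2 bases, TTTC). The marked matches do not overlap one another.
PSMC6 (chr14:52706950-52707249, plus strand): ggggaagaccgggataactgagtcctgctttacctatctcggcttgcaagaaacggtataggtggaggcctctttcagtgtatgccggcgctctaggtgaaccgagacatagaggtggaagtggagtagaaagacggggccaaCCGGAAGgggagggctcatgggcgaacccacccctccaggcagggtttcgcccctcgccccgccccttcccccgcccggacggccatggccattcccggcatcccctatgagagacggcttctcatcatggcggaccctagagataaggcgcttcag
PSMD1 (chr2:231056617-231056916, plus strand): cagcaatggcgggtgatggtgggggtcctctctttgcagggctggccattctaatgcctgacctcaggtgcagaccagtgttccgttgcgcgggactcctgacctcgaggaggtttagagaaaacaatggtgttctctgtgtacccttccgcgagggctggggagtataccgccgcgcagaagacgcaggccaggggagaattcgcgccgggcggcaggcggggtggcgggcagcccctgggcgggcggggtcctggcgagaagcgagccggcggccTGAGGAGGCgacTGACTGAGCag
PSMD12 (chr17:67366528-67366827, minus strand): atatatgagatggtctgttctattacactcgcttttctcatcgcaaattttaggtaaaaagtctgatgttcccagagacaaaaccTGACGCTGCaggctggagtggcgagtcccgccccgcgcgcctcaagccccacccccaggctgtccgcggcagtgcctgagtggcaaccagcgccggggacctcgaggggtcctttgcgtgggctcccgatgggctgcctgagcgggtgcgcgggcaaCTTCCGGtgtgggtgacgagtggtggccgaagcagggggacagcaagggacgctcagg
PSMB10 (chr16:67936801-67937100, minus strand): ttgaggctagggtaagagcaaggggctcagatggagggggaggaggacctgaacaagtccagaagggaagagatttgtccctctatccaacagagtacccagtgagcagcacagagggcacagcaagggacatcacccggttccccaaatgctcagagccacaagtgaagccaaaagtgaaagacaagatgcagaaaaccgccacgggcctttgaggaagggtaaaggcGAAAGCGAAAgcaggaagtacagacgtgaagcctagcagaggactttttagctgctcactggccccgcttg
PSME1 (chr14:24135944-24136243, plus strand): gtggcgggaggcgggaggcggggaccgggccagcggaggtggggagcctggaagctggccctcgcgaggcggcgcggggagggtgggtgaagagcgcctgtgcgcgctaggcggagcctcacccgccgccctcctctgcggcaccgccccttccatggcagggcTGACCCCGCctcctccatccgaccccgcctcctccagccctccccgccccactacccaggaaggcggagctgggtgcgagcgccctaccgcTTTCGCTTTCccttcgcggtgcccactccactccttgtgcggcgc
The first of these motifs was present in 13 of the 43 matched promoters (30.2%), against 13.3% of all 34796 RefSeq promoters of that length. TGAGNNNGC was present in 13 (30.2%), against 18.3% of all. CCGGAAG was found in 14 (32.6%), against 10.2% of all, and these include the ATPases PSMC1, PSMC2 and PSMC6 and the non-ATPases PSMD6, PSMD7, PSMD8, PSMD12, PSMD13 and PSMD14. CCAAT was found in 20 (46.5%, against 34.6% of all), TTCNNNGAA in 5 (11.6%, against 7.67%) and the ISRE in 6 (14%, against 3.57%). The last was found at PSMB10, PSME1, PSME2, PSMA4, PSMB4 and PSMG4. Members at 0 counts are among the 43, and a match is a run of letters, not a measured binding site. Of the matched members, 9 have more than 1 promoter, so the shares of members and of all promoters may not count like units.

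Of the 6 members with the highest mean level in every group, 5 were constitutive beta genes and 1 was the alpha gene PSMA7. On the deposited FPKM scale, which divides by gene length, PSMB7, the subunit with trypsin-like activity, averaged 544 ± 30.1 in B, 632 ± 61.5 in A and 584 ± 86.7 in Nc (SD, n = 3 each). PSMB3, a beta subunit with no active site, followed with 469.7 ± 66.2 in B, 538 ± 89.0 in A and 521 ± 138 in Nc, and the alpha subunit PSMA7 had 305 ± 8.92, 289 ± 25.8 and 292 ± 30.6. PSMB7 and PSMB3 do not differ beyond their spread in Nc, where single libraries ran from 499 to 672 and from 384 to 659. PSMB4, PSMB5 (chymotrypsin-like activity) and PSMB6 (caspase-like activity) lay next to one another, at 251, 221 and 211 FPKM in B, 272, 254 and 242 in A and 268, 232 and 239 in Nc.

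Within the 20S alpha ring the spread of levels was wide. PSMA7 was the highest, while PSMA1 had 6.14 ± 0.569 FPKM in B, 4.74 ± 0.374 in A and 6.01 ± 0.112 in Nc, PSMA6 had 4.92 ± 0.307, 4.53 ± 0.0769 and 5.01 ± 0.495, and PSMA2 had 0.538 ± 0.0630, 0.404 ± 0.0468 and 0.664 ± 0.0546. These 3 low genes share 24.7%, 14.1% and 14.6% of their exonic bases with a same-strand gene in GENCODE release 29, and each of those partners held at most 2 counts in any library. The sources used here do not give how reads matching more than 1 gene were counted, and the levels of the 3 are uncertain for that reason. The subunits are known to be built into the core in equal numbers, but their FPKM differ by far more than the spread between libraries.

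In the 19S cap, the ATPase PSMC3 led with 164 ± 10.1 FPKM in B, 173 ± 17.4 in A and 165 ± 13.7 in Nc. PSMC6, of the same ring, was lowest of the ATPases on this scale with 5.17 ± 1.05, 6.77 ± 0.996 and 9.22 ± 1.34. The gene length of PSMC6 is 7482 bases and that of its longest transcript 2939, against 2276 and 1580 for PSMC3. The rank of PSMC6 and its distance from PSMC3 therefore depend on the length used. Of the non-ATPases, the scaffold PSMD2 had the highest level, at 113 ± 6.62 in B, 151 ± 11.4 in A and 132 ± 7.38 in Nc. PSMD6 had the lowest, at 4.73 ± 0.595, 5.25 ± 0.590 and 6.06 ± 0.794. PSMC1 shares 75.8% of its exonic bases with NRDE2 on the opposite strand, and whether the counting used strand is not given in the sources used here.

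**Figure D1:**
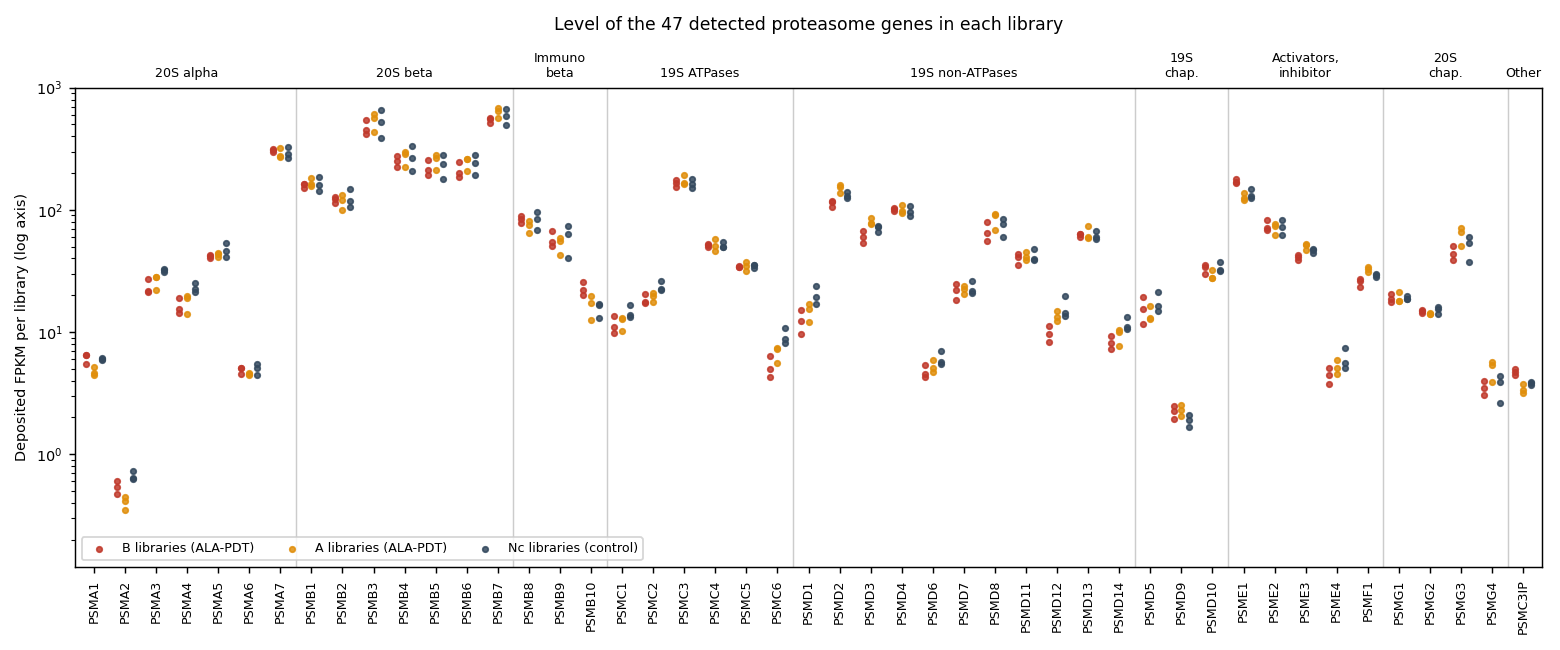
Deposited FPKM of the 47 detected proteasome genes (log axis), 1 point per library, with B left, A in the middle and Nc right within each gene. Genes are grouped by role, and the constitutive beta genes run from 101 FPKM (PSMB2 in A1) to 688 (PSMB7 in A2), a range that PSMA7, PSMC3, PSME1 and PSMD2 share.

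In B against Nc, the question is whether cells treated with ALA-PDT differed from untreated cells. PSMC6, PSMD1, PSMD12 and PSMD14 of the 19S cap and the alpha subunits PSMA3 and PSMA4 fell, and the immunoproteasome subunit PSMB10 rose. A gene was called at an adjusted p under 0.05 in edgeR's quasi-likelihood test, with Benjamini-Hochberg adjustment over all 13845 genes. By that rule 1 member was higher and 6 were lower, 7 of 47 (14.9%), and 13.4% of all genes tested were called (6.12% higher, 7.24% lower). The share among the members is thus close to that of all genes. The median log2 fold change of the members was -0.06, and that of all genes was -0.002. The FPKM of the groups did not overlap for 16 of the 47 members, against 4242 of all 13845 genes (30.6%).

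PSMC6, an ATPase of the unfolding ring (chr14:52707172-52728587, plus strand, GRCh38 coordinates of the deposited table), had the lowest log2 fold change of the members. It had 4.94, 6.32 and 4.25 FPKM in B1 to B3, 7.25, 5.62 and 7.43 in A1 to A3, and 10.7, 8.10 and 8.84 in Nc1 to Nc3. Each B library was below each Nc library, and its log2 fold change was -0.82 ± 0.16 (SE, adjusted p = 0.00505), a level 0.566 times that of Nc. PSMC6 was called in each of the 9 fits that left out 1 library.

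PSMD12, a subunit of the cap's lid (chr17:67337916-67366627, minus strand), had 9.72, 11.2 and 8.33 FPKM in B, 14.9, 12.3 and 13.3 in A, and 19.7, 13.6 and 14.4 in Nc. B lay below both other groups with no overlap, and its log2 fold change against Nc was -0.69 ± 0.15 (adjusted p = 0.0094). PSMD1, the large scaffold of the cap's base (chr2:231056864-231172827, plus strand), had 12.4, 15 and 9.60 FPKM in B, 17.1, 12.1 and 15.4 in A, and 23.8, 16.8 and 19.2 in Nc. B and Nc did not overlap, A overlapped both, and the log2 fold change of B was -0.68 ± 0.17 (adjusted p = 0.0195).

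PSMD14, the enzyme that cuts ubiquitin chains off at the cap (chr2:161308038-161411717, plus strand), had 8.12, 9.27 and 7.30 FPKM in B, 10.4, 7.64 and 9.99 in A, and 13.4, 10.7 and 11.0 in Nc. Both treated groups lay below Nc without overlap, and for B the log2 fold change was -0.49 ± 0.14 (adjusted p = 0.0328). Its usual partner in the lid, PSMD7, had a log2 fold change of -0.06 ± 0.13 (adjusted p = 0.819). The other 13 of the 17 subunits of the cap, PSMD7 among them, did not pass the test. Of these, PSMC2 (-0.34 ± 0.12, adjusted p = 0.0724), PSMD6 (-0.34 ± 0.14, 0.102) and PSMC1 (-0.33 ± 0.14, 0.144) had the lowest log2 fold changes, while PSMC3, PSMC4 and PSMC5 lay between -0.01 and 0.01.

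In the 20S core, 2 of the 7 detected alpha genes fell, PSMA3 (chr14:58244831-58272012, plus strand) and PSMA4 (chr15:78540405-78552419, plus strand). PSMA3 had 21.3, 27.3 and 21.8 FPKM in B, 28.1, 22.0 and 28.2 in A, and 32.8, 31.1 and 32.3 in Nc, which is a log2 fold change of -0.44 ± 0.13 in B (adjusted p = 0.0398). PSMA4 had 14.2, 18.9 and 15.3 FPKM in B, 19.7, 14.1 and 18.9 in A, and 25.0, 21.2 and 22.4 in Nc, with a log2 fold change of -0.49 ± 0.15 in B (adjusted p = 0.0389). For both genes every treated library, of B and of A, was below every Nc library. None of the 7 constitutive beta genes was called, and their log2 fold changes lay between -0.17 and -0.02, with SEs of 0.13 to 0.18.

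**Figure D2:**
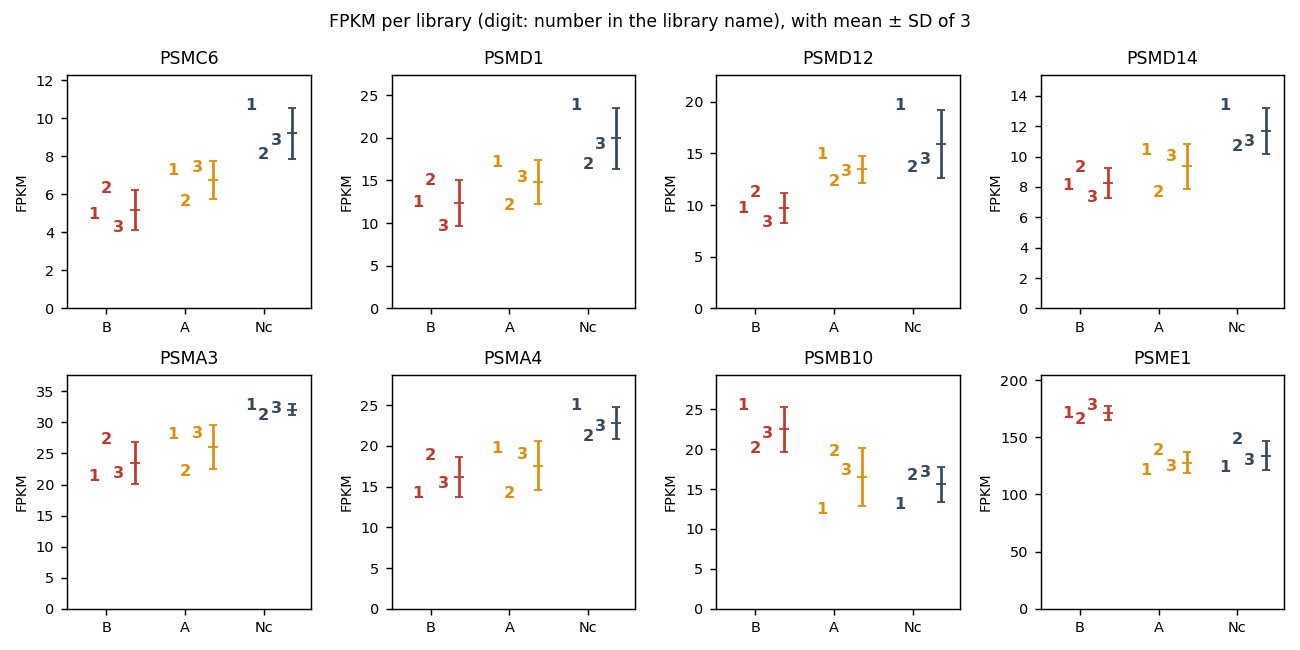
FPKM per library of the 6 genes that were lower in B than in Nc, and of PSMB10 and PSME1, with mean and SD of 3 libraries. Digits are the numbers in the library names, axes start at 0, and B lies below Nc without overlap for PSMC6, PSMD1, PSMD12, PSMD14, PSMA3 and PSMA4 and above it for PSMB10 and PSME1.

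The genes that fell in B have low GC content, and the libraries differ by GC. The longest transcripts of the 6 genes had 32% to 44.2% GC, and the 6 were among 16 detected members under 45%. Of all 3701 genes under 45% that averaged 100 counts or more, 21.4% were called lower in B and their median log2 fold change was -0.24, against 1.75% and 0.03 for the 4353 genes at 50% or more. Of 5 equal classes of genes by GC, the lowest had, relative to the mean over libraries, a median log2 level of -0.15, 0.06 and -0.27 in B1 to B3 and of 0.43, 0.06 and 0.13 in Nc1 to Nc3. With smooth trends on GC content and transcript length removed per library, PSMC6 (-0.57, adjusted p = 0.00104), PSMD1 (-0.61, 0.00479), PSMD12 (-0.39, 0.00231) and PSMA4 (-0.32, 0.0224) were still called, while PSMA3 (-0.13, 0.288) and PSMD14 (-0.16, 0.139) were not. In that fit 2 members were higher and 9 were lower, in which PSMB6, PSMC1, PSMD2, PSMD3 and PSME3 joined the lower ones, and 23.9% of all genes were called (13.1% higher, 10.8% lower).

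**Figure D3:**
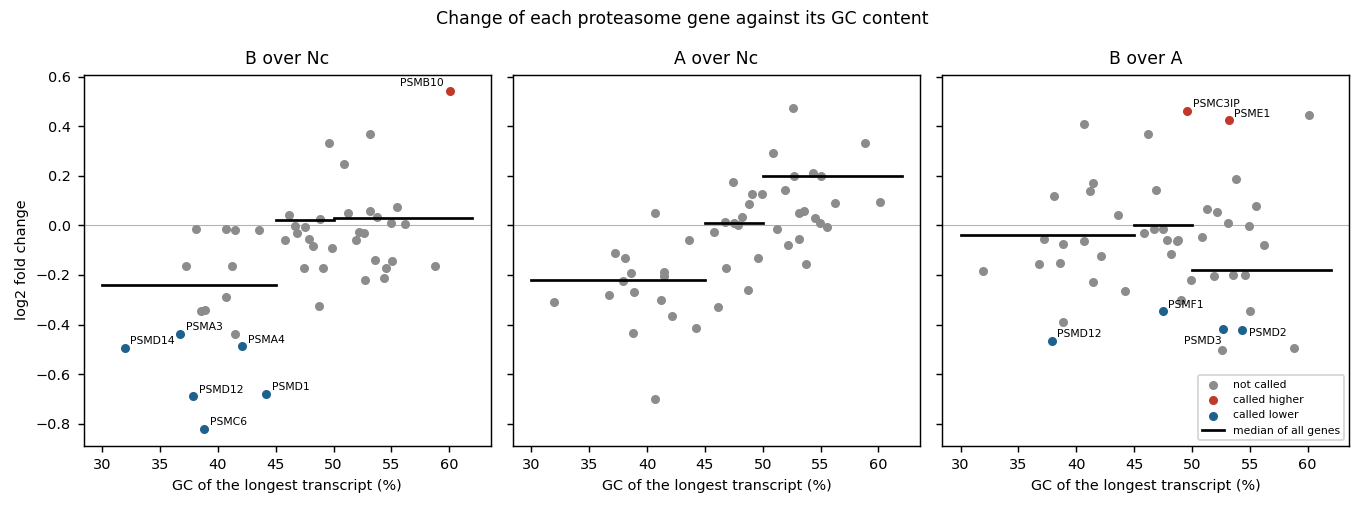
Log2 fold change of each of the 47 detected members against the GC content of its longest transcript, for B over Nc, A over Nc and B over A. Black lines are medians, in 3 classes of GC, of all genes that averaged 100 counts or more, and in B over Nc the 6 blue points, called lower, all lie under 45% GC, where the median of all genes was -0.24.

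Leaving out single libraries moved these counts. Without B3, only PSMC6 remained among the lower genes. Without Nc1, or without B1, PSMC6 and PSMD12 did, and without Nc3 these 2 and PSMD1 did. PSMB10 was not called without Nc1, Nc3, B1, B3 or A3, and without Nc2 both PSMB10 and PSME1 were. Without Nc2, 5 members were lower. Counts of HBB were 7550 in B3, 6700 in Nc1 and 6665 in Nc2, but 4 in B1 and 2 in Nc3. The part of HBB in these calls was not tested. Without the 5 libraries above 100 HBB counts (A1, A2, B3, Nc1 and Nc2), 2 libraries of B, 1 of A and 1 of Nc are left.

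The immunoproteasome subunits stand in for the 3 active beta subunits: PSMB8 takes the place of PSMB5, PSMB9 that of PSMB6 and PSMB10 that of PSMB7. PSMB10 (chr16:67934502-67937087, minus strand) had 25.5, 20.03 and 21.9 FPKM in B, 12.5, 19.7 and 17.3 in A, and 13.1, 16.7 and 17.0 in Nc. B lay above both other groups without overlap, though the lowest B library (20.03) was close to the highest A library (19.7), and its log2 fold change over Nc was 0.54 ± 0.17 (adjusted p = 0.0403). For the other two, the log2 fold change in B against Nc was 0.03 ± 0.14 (PSMB8, adjusted p = 0.91) and -0.03 ± 0.19 (PSMB9, 0.934), and neither passed. PSMB10 shares 34.8% of its exonic bases with a same-strand read-through gene, AC040162.1, which held 19, 27 and 34 counts in B, 12, 13 and 21 in A and 27, 24 and 22 in Nc, against 672 to 774 counts of PSMB10 in B, 397 to 538 in A and 431 to 529 in Nc.

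Ratios within a library do not depend on how libraries are scaled, but trends with GC and length that differ between libraries stay in them. PSMB10 has 60.1% GC and PSMB7 49.9%, and the part of such trends in the ratios was not tested. The ratio of PSMB10 to PSMB7 was 0.0448, 0.0392 and 0.0397 in B1 to B3, 0.0221, 0.0286 and 0.0269 in A1 to A3, and 0.0262, 0.0248 and 0.0293 in Nc1 to Nc3. Each B library was above each of the other 6, and the means were 0.0412 ± 0.00307 in B, 0.0259 ± 0.00339 in A and 0.0268 ± 0.00231 in Nc. PSMB8 to PSMB5 was 0.384 ± 0.0299 in B, 0.292 ± 0.0189 in A and 0.361 ± 0.0197 in Nc, with A below both others in all libraries. The deposited length of PSMB8 is 2006 bases, against 2997 in all its exons. The level of this ratio is thus not on the scale of the other pairs, though groups can be compared. PSMB9 to PSMB6 was 0.273 ± 0.00417 in B, 0.215 ± 0.00951 in A and 0.245 ± 0.0314 in Nc, and B lay above A and Nc, whose own values overlapped. In all groups the constitutive gene had the higher FPKM of each pair, which is a level of messenger RNA and not of protein. These ratios are described without a test.

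The PA28 activator of the cytoplasm is built from PSME1 and PSME2, which lie near each other on chromosome 14. PSME1 (chr14:24136158-24138967, plus strand) had 171, 166 and 178 FPKM in B, 121, 138 and 124 in A, and 124, 148 and 129 in Nc, so that B lay above both other groups. Against Nc its log2 fold change was 0.37 ± 0.12 and just missed the threshold (adjusted p = 0.053), and it passed with trends on GC and length removed (0.29, adjusted p = 0.0215). PSME2 had 82.6, 69.0 and 71.2 FPKM in B, 62.2, 73.3 and 77.1 in A, and 62.8, 82.2 and 72.0 in Nc, and the 3 groups overlapped (0.05 ± 0.14, adjusted p = 0.858). The ratio of PSME1 to PSME2 was 2.06, 2.40 and 2.50 in B, 1.94, 1.88 and 1.61 in A, and 1.97, 1.80 and 1.80 in Nc, with every B library above the rest. The nuclear activator PSME3 (-0.17 ± 0.11, adjusted p = 0.33), the activator PSME4 (-0.44 ± 0.15, 0.0671) and the inhibitor PSMF1 (-0.17 ± 0.11, 0.334) did not pass in B against Nc.

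**Figure D4:**
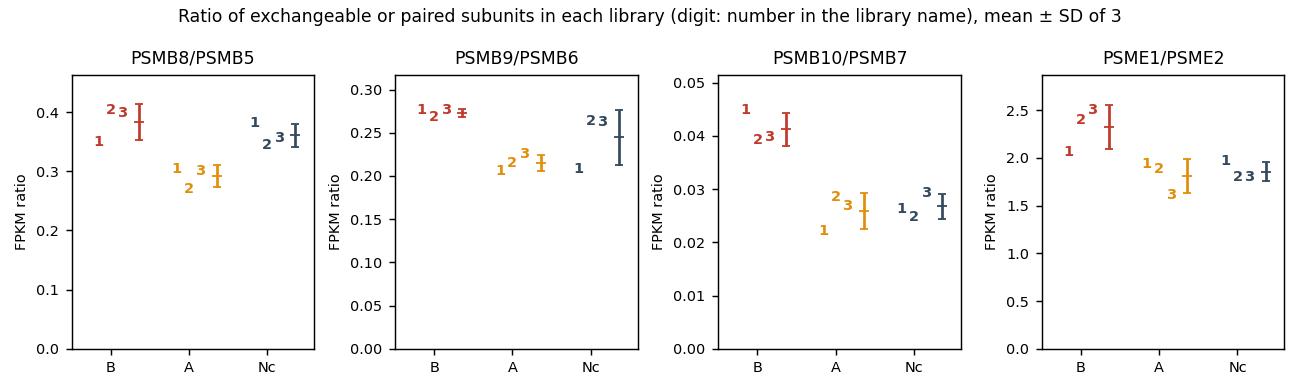
Ratio of FPKM within each library for the 3 immunoproteasome subunits over the subunits they replace and for PSME1 over PSME2, with mean and SD of 3 libraries. Digits are the numbers in the library names, axes start at 0, and the B libraries lie above all others for PSMB10/PSMB7 (mean 0.0412 in B, 0.0259 in A and 0.0268 in Nc) and PSME1/PSME2 (2.32, 1.81 and 1.86).

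Chaperones of proteasome assembly were not called in B against Nc, whether of the 19S cap (PSMD5, PSMD9, PSMD10, log2 fold changes of -0.16 to 0.25) or of the 20S core (PSMG1 to PSMG4, with the lowest at -0.17). PSMC3IP, the recombination factor, had a log2 fold change of 0.33 ± 0.15 (adjusted p = 0.141).

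In A against Nc, no member was called among 47, where 2.72% of all genes were (1.76% higher, 0.953% lower). At an unadjusted p under 0.05 there were 9 members (19.1%) and 22.6% of all genes, and DESeq2's Wald test also called 0 members. The median log2 fold change was -0.02 for the members and 0.01 for all genes. The groups did not overlap for 10 of the 47 members, against 3598 of all 13845 genes (26%). All 7 detected alpha genes had a log2 fold change below 0, from -0.70 ± 0.22 (PSMA2, adjusted p = 0.0986) to -0.005 (PSMA7), while 6 of the 7 constitutive beta genes were above 0, up to 0.14 (PSMB5). These are values that did not pass the test, and 6758 of all 13845 genes were below 0. Among the alpha genes, PSMA2 to PSMA6 have 36.75% to 42.12% GC, and the constitutive beta genes have 40.7% to 54.5%. In A against Nc, the median of genes under 45% GC was -0.22, against 0.20 at 50% GC or more. With trends on GC and length removed, PSMA3 was at 0.01, while PSMA1 (-0.29), PSMA2 (-0.49) and PSMA4 (-0.21) stayed below 0. The difference between alpha and beta genes was not tested. Without A1, PSMG4 alone was called, as higher. This comparison and that of B use the same Nc libraries.

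Libraries of A and Nc with the same number deviated together, so the number was also used as a block in a fit of these 6 libraries. No label states this pairing. It was read from the same counts that were then tested, and the adjusted p-values do not allow for that choice. In that fit 4 members were higher and 14 lower, 18 of 47, and 34.8% of all 13216 genes tested were called (16.5% higher, 18.3% lower). The 4 were the 20S chaperones PSMG3 and PSMG4, the lid subunit PSMD8 and the chaperone PSMD9. The 14 were PSMA1, PSMA2, PSMA3 and PSMA4 of the alpha ring, PSMC1, PSMC2 and PSMC6 of the ATPases, PSMD1, PSMD6, PSMD12 and PSMD14 of the non-ATPases, PSMD5, PSMD10 and PSME4. The adjusted p was lowest for PSMD1 (log2 fold change -0.43, adjusted p = 0.000244), PSMC6 (-0.45, 0.000387) and PSMG4 (0.46, 0.000721).

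With trends on GC and length also removed from that blocked fit, 4 members were higher and 10 lower, with 17.5% of all genes called (9.3% higher, 8.2% lower). PSMD1 (-0.32, adjusted p = 0.000331), PSMC1 (-0.31, 0.00425), PSMA4 (-0.21, 0.0205), PSMA1 (-0.30, 0.0356) and PSMC6 (-0.19, 0.0398) were lower under both, and PSMG4 was higher under both (0.35, 0.00229). PSMA3 (0.01), PSMD12 (0.06), PSMD14 (0.07) and PSMD6 (0.07) changed sign and did not pass, though all 4 were called lower in the blocked fit. The other 5 of the lower genes there did not pass either: PSMA2 (-0.50), PSMC2 (-0.02), PSMD5 (-0.11), PSMD10 (-0.01) and PSME4 (0.00). Of the higher ones, PSMD8 (0.02), PSMD9 (0.19) and PSMG3 (0.11) did not pass. Called only with the trends removed were PSMA5, PSMB1 and PSMF1 as higher and PSMA7, PSMB8, PSMC4, PSME1 and PSMG2 as lower. The low-GC genes again stood below the rest in A: 3701 genes under 45% GC had a median of -0.22 and 4353 genes at 50% or more of 0.20. For PSMG4, the FPKM were 3.92, 5.34 and 5.63 in A1 to A3 and 2.62, 4.34 and 3.86 in Nc1 to Nc3, higher in A for each number though the groups overlap.

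**Figure D5:**
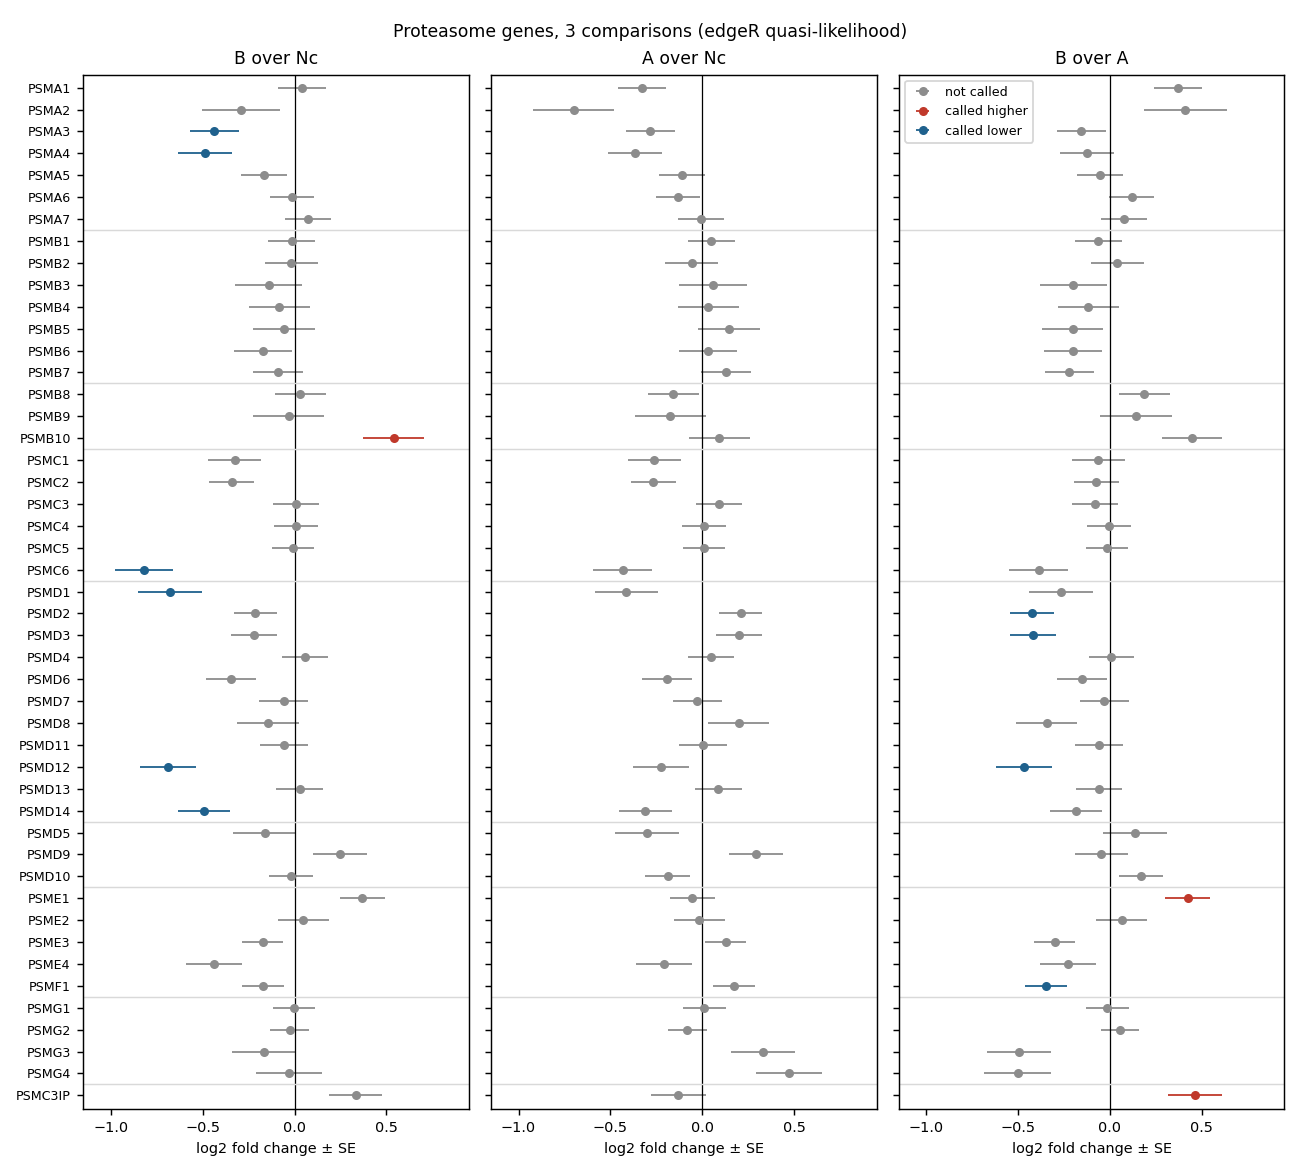
Log2 fold change with its SE for the 47 detected members in B over Nc, A over Nc and B over A, from edgeR's quasi-likelihood fit of all 9 libraries without a block. Red and blue mark genes called higher or lower, which were 1 and 6 in B over Nc, 0 and 0 in A over Nc, and 2 and 4 in B over A.

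B against A compares the treated groups with each other. Here PSME1 and PSMC3IP were higher in B, and the 19S non-ATPases PSMD2, PSMD3 and PSMD12 and the inhibitor PSMF1 were lower. That is 6 of 47 members (12.8%), where 18% of all genes were called (8.79% higher, 9.25% lower). The groups did not overlap for 10 of the 47 members, against 4726 of all 13845 genes (34.1%). The median log2 fold change was -0.06 for the members and -0.02 for all genes. Of the 17 subunits of the cap 16 were below 0, with a median of -0.08, and only 3 were called. Of all 13845 genes, 7239 were below 0.

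PSMD2 had 116, 105 and 117 FPKM in B, 155, 159.8 and 138 in A, and 140.0, 129 and 126 in Nc. B was below both other groups, A overlapped Nc, and the log2 fold change of B over A was -0.42 ± 0.12 (adjusted p = 0.0216). PSMD3, a lid subunit, had 67.3, 53.7 and 59.4 FPKM in B, 76.8, 85.5 and 78.4 in A, and 65.5, 73.9 and 72.3 in Nc. A was above both other groups, and the log2 fold change of B over A was -0.42 ± 0.12 (adjusted p = 0.0283). Neither gene was called in B or A against Nc in that fit. PSMF1, which binds and inhibits the core in vitro, had 27.3, 23.5 and 26.4 FPKM in B, 31.2, 34.0 and 32.7 in A, and 30.03, 28.5 and 29.1 in Nc. Its 3 groups did not overlap, with A highest and B lowest, and its log2 fold change of B over A was -0.35 ± 0.11 (adjusted p = 0.0435).

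PSMD12, which was lower in B than in Nc, was lower than in A too (-0.47 ± 0.15, adjusted p = 0.0443). PSME1 was higher in B than in A by 0.42 ± 0.12 on the log2 scale (adjusted p = 0.024), with all B libraries above all A libraries. PSMC3IP had 4.73, 5.02 and 4.45 FPKM in B, 3.35, 3.18 and 3.76 in A, and 3.87, 3.68 and 3.82 in Nc, which gave 0.46 ± 0.15 for B over A (adjusted p = 0.0391). PSMB10 (0.45 ± 0.17, adjusted p = 0.0709), PSMG3 (-0.50 ± 0.17, 0.0574), PSMG4 (-0.50 ± 0.18, 0.0633) and PSME3 (-0.30 ± 0.11, 0.0747) did not pass. In this comparison the trend with GC ran the other way: the 4353 genes at 50% GC or more had a median of -0.18 and those under 45% one of -0.04, and PSMD2 and PSMD3 have 54.3% and 52.7% GC. With the trends removed all 6 were still called, PSMB10 (0.70, adjusted p = 5.12e-05), PSMA1 and PSMB8 joined the higher ones, the lower ones came to 10, and 30.2% of all genes were called (17% higher, 13.1% lower). Single libraries decided several of the calls: without A1, A3 or B3 no member was higher, without Nc3 or B2 only PSME1 was, without A2 or B3 no member was lower, and without A3 only PSMD2 was. Without Nc2, Nc3 or B1 the lower ones were PSMD2 and PSMD3, and without B2 they were PSMD12 and PSMC6.

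Genes of the same pathway outside the symbol rule were tested in the same way. Of 9 proteasome factors with other symbols, 2 fell in B against Nc, where 7.24% of all genes did: UCHL5, a deubiquitinase bound to the cap (-0.70 ± 0.16, adjusted p = 0.0122), and ECPAS, which ties proteasomes to other cell structures (-0.50 ± 0.15, 0.0384). The remaining 7, which include the 20S maturation factor POMP (-0.30 ± 0.12, adjusted p = 0.109), did not pass. In B against A, ADRM1, the ubiquitin receptor that holds UCHL5, fell (-0.71 ± 0.16, adjusted p = 0.00837), with 82.4, 62.7 and 68.0 FPKM in B and 95.1, 125 and 126 in A.

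None of the 7 genes on the NRF1 route was called in any of the 3 comparisons, where 13.4% of all genes were in B against Nc, 2.72% in A against Nc and 18% in B against A. NFE2L1, which encodes NRF1, had 46.9, 41.6 and 48.5 FPKM in B, 39.9, 42.5 and 39.2 in A, and 37.9, 35.7 and 36.6 in Nc, so that B and A were above Nc without overlap (B over Nc 0.32 ± 0.11, adjusted p = 0.0694; A over Nc 0.16 ± 0.11, 0.429). NFE2L2, which encodes NRF2, had 9.49, 10.1 and 7.83 FPKM in B, 9.26, 7.28 and 8.49 in A, and 13.5, 10.51 and 12.1 in Nc, so that B and A were below Nc without overlap (B over Nc -0.39 ± 0.14, adjusted p = 0.0686, and A over Nc -0.52 ± 0.14, 0.0555). DDI2, the protease that activates NRF1, had 0.737 times the Nc level in B (-0.44 ± 0.15, adjusted p = 0.0568). None of the 6 genes for ubiquitin and its activating enzymes was called in B or A against Nc. Among 12 genes of MHC class I loading and its regulators, IRF1, an interferon-responsive factor, rose in B against A (0.44 ± 0.12, adjusted p = 0.0182). No gene of this list was called in A against Nc.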

How the data were processed

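The deposited table of raw counts per gene and library was used, with FPKM from the authors' second table. FastQC, HISAT2, StringTie and the build GRCh38 are named, with no version or role, per the submitters' processing notes. The sources used here give neither the annotation release, nor the use of strand, nor how reads shared by genes were counted. In each library the deposited FPKM equalled the count divided by gene length and by a constant, to a relative difference of 5.1e-15 at most, and the constant stood in 1 ratio to DESeq2's size factor (0.999) in all 9.

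Groups were compared with edgeR 4.0.16 (R 4.3.3): TMM factors, filterByExpr, glmQLFit and glmQLFTest on all 9 libraries with group as the only term, two-sided, Benjamini-Hochberg adjustment over 13845 genes, called at 0.05. SEs are the log2 fold change over the root of F. Each member and each gene of the listed pathways could be named. Some results on those pathways are not reported here. The members and lists were chosen with earlier results of these data known. Alternatives used other scalings and filters, DESeq2 1.42.0, limma 3.58.1 on log2(FPKM + 0.1), a block on the library number, length-trend offsets, and leaving out each library. Those on GC and transcript length, on blocked fits of the compared groups alone and on globin counts were chosen after seeing the data. GC and length come from the longest GENCODE release 29 transcript, with splines of 4 degrees of freedom over genes of at least 100 mean counts.

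The number in a library's name gives no stated pairing. Deviations from group means, over 13845 genes, correlated at 0.41, 0.23 and 0.25 between same-numbered A and Nc libraries, and at -0.30, -0.30 and -0.32 between B and Nc and -0.22, -0.17 and -0.22 between B and A. B libraries correlated with others at a shifted number instead, B2 with A1 and Nc1 (0.26, 0.27), B3 with A2 and Nc2 (0.24, 0.25) and B1 with A3 and Nc3 (0.29, 0.29), an order that no label gives. The number was taken to pair A with Nc, and B was paired with neither. Tested on simulated counts of 13845 genes, the fit recovered 45 of 100 genes changed 1.5-fold and 98 of 100 changed 2-fold in B against Nc, with 11 false calls. For B against A it recovered 48 and 99, with 9 false calls. For A against Nc no gene was changed and 1 was called. The changed genes were drawn from those averaging at least 100 counts. Simulated counts had no trend with GC or length and no deviations shared between libraries. The real libraries have both, so these counts of false calls do not carry over to them. Values were summarised in Python 3.11.15 with pandas 2.3.3 and drawn with matplotlib 3.10.9.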

Additional observations from a re-analysis of the deposited data

Results flagged for a closer look

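For 6 genes the change after ALA-PDT differed between the treated groups, by the direct test of B against A (edgeR's quasi-likelihood test, adjusted p under 0.05). On the log2 scale of B over A, PSME1 was at 0.42 and PSMC3IP at 0.46, PSMD12 at -0.47, PSMD2 at -0.42, PSMD3 at -0.42 and PSMF1 at -0.35. In all 6, each library of B lay on 1 side of each library of A. The genes were chosen by a test on these same libraries, so this separation adds no support. Without such a choice, the groups did not overlap for 34.1% of all genes. The share of members called, 12.8%, was below the 18% of all genes.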

How the results depend on the processing

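In B against Nc, 1 member was higher and 6 were lower. With library totals, length trends removed with a replicate block, or the compared groups alone with a replicate block, 3 were lower, and 2 were higher with library totals, with DESeq2, and with length trends or GC and length trends removed, these trend fits with or without the block on all 9 libraries. None was higher with limma on FPKM, or with the compared groups alone and a replicate block. Leaving out 1 library gave 0 to 2 higher and 1 to 7 lower. In A against Nc, 0 members were called, also with the replicate block on all 9 libraries. Without a filter on low counts 2 were lower (PSMC6, PSMD1). In the paired fit of A and Nc alone, 4 were higher and 14 lower, and 4 and 10 with GC and length trends removed as well. Leaving out 1 library gave 0 to 1 higher and 0 lower.

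In B against A, 2 were higher and 4 lower. With the replicate block these were 1 and 0, and with the groups alone and the block 0 and 0. Higher ones were 5 with length trends or GC and length trends removed and 4 with the block added. Lower ones were 1 with library totals, 1 with length trends and block, 10 with GC and length trends removed, 8 with the block added, and 7 in the groups alone with trends removed and block. Leaving out 1 library gave 0 to 3 higher and 0 to 6 lower. The fit without the libraries above 100 HBB counts leaves 1 library each in A and Nc, so its calls are not counted here. Libraries B do not share numbers with the others beyond the name, so their blocked counts are given only here.

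Single values changed sign. In A against Nc, with GC and length trends removed, then with the block, then in the groups alone with both, PSMA3 was at 0.01, 0.01 and 0.01, PSMD12 at 0.06, 0.06 and 0.06, PSMD14 at 0.08, 0.08 and 0.07 and PSMD6 at 0.07 in each, and PSME4 at 0.00 with the block. In B against Nc and the same 3 fits, PSMB8 was at -0.06, -0.05 and -0.06 and PSME2 at -0.07, -0.06 and -0.07. PSMB8 was at -0.01 without a filter. Without 1 library, PSMB8 ran from -0.10 to 0.17, PSME2 from -0.05 to 0.17 and PSMB9 from -0.25 to 0.18. PSMB9 was at 0.01 with library totals, 0.01 with the replicate block, 0.00 with length trends removed, 0.03 with the block added and 0.00 in the groups alone with the block. The cause was not tested. No gene called in the 3 comparisons without a block changed sign, but PSMA3, PSMD6, PSMD12, PSMD14 and PSME4 were called lower in the paired fit of A and Nc (-0.31, -0.21, -0.23, -0.33 and -0.22). The median FPKM of the 47 members was 34.6 in B, 35.0 in A and 35.3 in Nc, and stayed between 33.9 and 36.4 without single libraries. Depth of 27 to 69 counts limits PSMA2.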
